A study of Xenopus laevis with 27 samples.

Results

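The genes hand1, gata4, gata5, gata6 and nkx2-5 encode transcription factors of heart formation. Their RNA was followed in Xenopus laevis embryos injected with constructs chosen to activate or suppress Notch signaling. Members were all probe sets whose gene symbol in the platform table, without the ending .L or .S, was one of these 5 names. This gave 13 probe sets of 8 symbols, of 32635 probe sets on the array and of 15505 with exactly 1 symbol. The ending names the long (.L) or short (.S) copy of a gene in this tetraploid frog. There was 1 probe set for hand1 (hand1.L), 4 for gata4 (2 each for gata4.L and gata4.S), 2 for gata5 (gata5.L and gata5.S), 3 for gata6 (1 for gata6.L and 2 for gata6.S) and 3 for nkx2-5 (all nkx2-5.S). Probe sets of the copies hand1.S and nkx2-5.L were not among them.

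Embryos had received 1.5 ng of capped RNA in 1 blastomere at the 2 cell stage, so that one side of the body carried the construct. NICD is the intracellular domain of Notch and switches the pathway on. DBM is a mutant of the transcription factor Suppressor of Hairless that cannot bind DNA, and it suppresses Notch signaling. GFP RNA served as tracer and as control for the injection, and no uninjected embryos were included. Embryos were raised to stage 18 (late neurula), stage 28 (tailbud) or stage 38 (swimming tadpole), and RNA was taken from pools of 10 whole embryos and measured on Affymetrix Xenopus laevis 2.0 arrays. Each of the 9 groups (NICD, DBM and GFP at each stage) had 3 arrays. Nothing stated that the 3 arrays of a group came from separate clutches, so p-values measure the spread between these arrays, which may be technical.

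In vertebrate embryos, nkx2-5 and the GATA factors gata4, gata5 and gata6 are switched on in the precursors of the heart and bind together at the promoters of heart muscle genes. The basic helix-loop-helix factor hand1 acts with them in the heart tube and is also made in the lateral plate mesoderm, and in the frog its RNA depends on BMP signals. The 3 GATA factors also act in the endoderm, where gata5 and gata6 are among the early regulators of gut and liver. Notch signaling is known in the frog for limiting the number of cells that become heart muscle. Because the RNA came from whole embryos, fewer cells that make a transcript and less of it per cell cannot be told apart, and the heart's own share of these signals is not known.

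The hand1 probe set is shown here by the part of its target sequence that can be read as protein, since it had the largest NICD minus GFP difference among the members. It comes from a supplementary list of the study, where it stands under the probe set's number with another array prefix and with the Entrez gene number (373663) of the probe set Xl2.1098.1.S1_at measured here. The 114 bases run 5′ to 3′ and form 1 open frame that ends in a stop codon, in capitals, so the target begins near the end of the coding region.
hand1: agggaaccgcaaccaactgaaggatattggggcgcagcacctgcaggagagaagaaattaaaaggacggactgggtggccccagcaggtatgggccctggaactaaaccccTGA

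Values were the deposited RMA summaries, which are on a log2 scale, so that a difference of 1 is 2-fold. Array medians lay between 6.83 and 6.99. Notch targets (HES, HEY and Nrarp genes, 28 probe sets) served as a check on the injections. Calls were made in limma at an adjusted p below 0.05 over all 32635 probe sets. With NICD at stage 18, 14 were higher than with GFP and none was lower. At stage 28, 9 were higher, and at stage 38, 1 was. With DBM none passed at any stage. At stage 18, 6 of the 28 had DBM minus GFP differences below 0. The median over the 28 was 0.16, against -0.002 over all probe sets, so no fall of the targets was seen with DBM there. Of the member probe sets, 12 lay above the dim limit of 5.04, the 25th percentile of all group means, in at least 1 group, and gata4.L Xl2.15267.2.A1_at did not, with 3.99 to 4.50 on all 27 arrays. Levels are not compared between probe sets, since their probes differ in brightness. Probe sets for the 2 copies of a gene may also bind RNA of the other copy, so the split between .L and .S is uncertain.

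At stage 18, hand1 and gata6 were lower in NICD embryos than in GFP embryos, and for nkx2-5 no difference was detected. The genes were not tested against each other. Of the 13 probe sets, 4 passed at an adjusted p below 0.05, all of them lower with NICD: hand1.L, gata6.L and both of gata6.S. Of all probe sets on the array, 0.732% were lower in this comparison. Of the other 9 member probe sets, 8 had differences below 0, and the median over the 13 was -0.38, against 0.01 over all probe sets. Members were chosen with earlier results of these data known, so the values over all probe sets serve as description only.

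The probe set of hand1.L, the basic helix-loop-helix factor, read 9.27, 8.87 and 8.91 with NICD at stage 18, against 9.72, 9.96 and 9.78 with GFP. The highest NICD array was thus below the lowest GFP array. The log2 difference was -0.80 ± 0.10 (SE, n = 3 arrays each), a level 1.74-fold lower, with a limma-adjusted p of 1e-04. Embryos with DBM, at 9.75, 9.85 and 9.91, lay within the range of the GFP arrays.

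The 2 probe sets of gata6.S, a GATA factor of heart and endoderm, gave like differences. With Xl2.23009.1.S1_at, NICD embryos read 9.57, 9.33 and 9.40 and GFP embryos 10.10, 10.07 and 10.12, a difference of -0.66 ± 0.08 (SE, limma-adjusted p = 0.00012). With Xl2.23009.2.S1_a_at they read 5.88, 5.88 and 5.88 against 6.45, 6.65 and 6.39, a difference of -0.62 ± 0.13 (SE, limma-adjusted p = 0.012). The groups did not overlap with either probe set, and the 2 sets correlated at r = 0.97 over the 27 arrays, which share the stage differences. Without GFP replicate 2, the second of them no longer passed (-0.54, limma-adjusted p = 0.09).

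The gata6.L probe set read 9.85, 9.74 and 9.86 with NICD and 10.17, 10.35 and 10.37 with GFP at stage 18. These groups were again apart, with a difference of -0.48 ± 0.10 (SE, limma-adjusted p = 0.015), the smallest of the 4 that passed. It missed the threshold without NICD replicate 2 (limma-adjusted p = 0.071), without GFP replicate 2 (0.083) or without GFP replicate 3 (0.1). With only the 6 arrays of the comparison in the fit, none of the 4 passed (limma-adjusted p = 0.14 to 0.24), with the same differences. Without GFP replicate 2, 2 of the 13 passed, and without GFP replicate 1, 6 did.

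**Figure D1:**
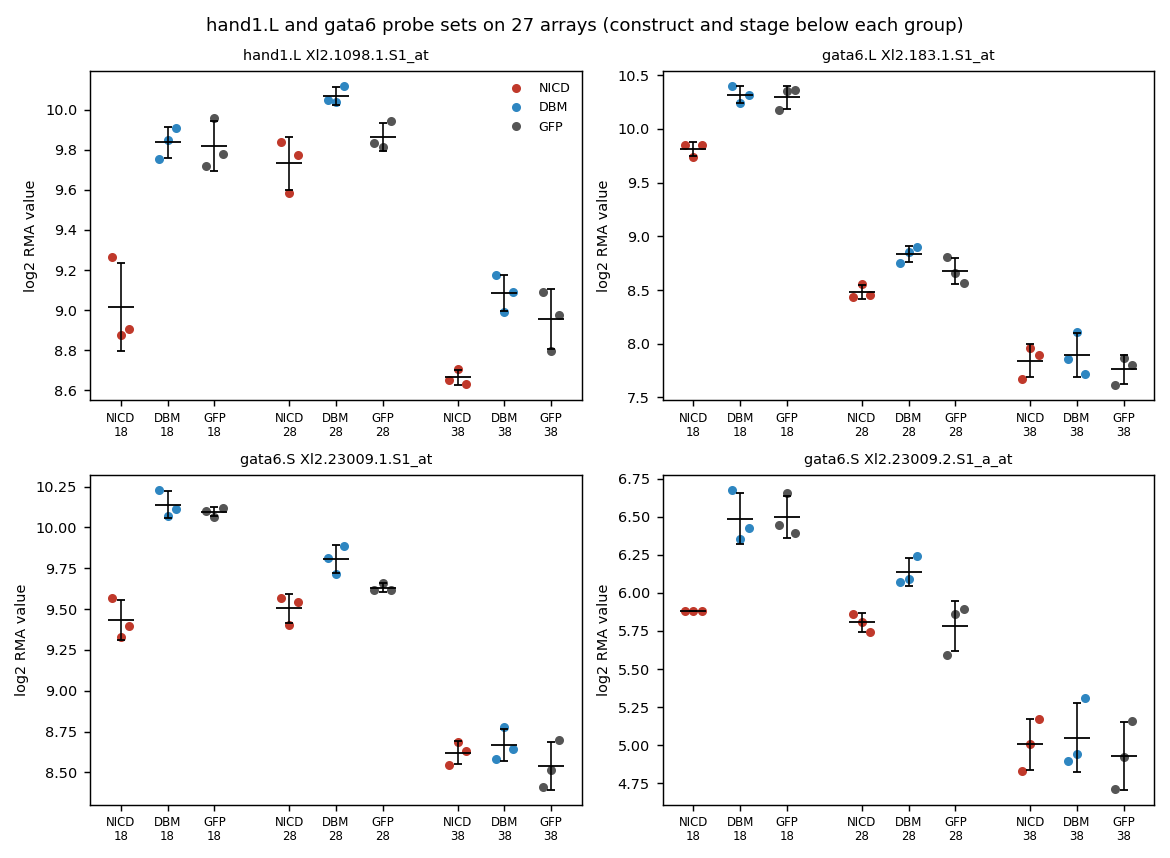
log2 RMA values (vertical axes) of hand1.L, gata6.L and the 2 gata6.S probe sets on 27 arrays, with NICD, DBM and GFP from left to right within stages 18, 28 and 38. Points are arrays, and bars are the mean and SD of 3 arrays. At stage 18 the 3 NICD arrays lie below every DBM and GFP array in all 4 panels, as for hand1.L at 8.87 to 9.27 with NICD against 9.72 to 9.96 with GFP.

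Both gata5 probe sets and the brighter of the gata4.L probe sets had lower means with NICD at stage 18 but did not pass. The gata5.S probe set, for a GATA factor of early endoderm and heart, read 8.51, 8.57 and 8.59 with NICD against 8.73, 9.28 and 9.34 with GFP, a difference of -0.56 ± 0.15 (SE, limma-adjusted p = 0.064). For gata5.L the values were 9.09, 9.35 and 9.38 with NICD and 9.35, 10.16 and 9.99 with GFP, a difference of -0.56 ± 0.18 (SE, limma-adjusted p = 0.13). In both, replicate 1 was the lowest GFP array, and for gata5.L it overlapped the NICD arrays. Without GFP replicate 1 the differences were -0.75 for gata5.S (limma-adjusted p = 0.0053) and -0.80 for gata5.L (0.0091).

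The gata4.L probe set Xl2.15267.1.S1_a_at, for a GATA factor of heart precursors and endoderm, read 8.77, 8.85 and 8.96 with NICD and 9.06, 9.36 and 9.29 with GFP at stage 18. The groups did not overlap, and the difference was -0.38 ± 0.13 (SE, limma-adjusted p = 0.17). In contrast, gata4.S gave 8.78, 7.85 and 8.32 with NICD against 8.44, 8.27 and 8.18 with GFP for Xl2.1061.1.S1_at, a difference of 0.02 with a 95% interval of -0.43 to 0.48. For its other probe set, Xl2.1061.1.S2_at, the difference was -0.21 (95% interval -0.48 to 0.06). Over all 13 probe sets, 7 had every NICD array below every GFP array, as had 7.15% of all probe sets.

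The homeobox factor nkx2-5, which marks the early heart field in vertebrates, had no difference detectable with 3 arrays per group. Its probe set Xl2.1093.1.S1_at read 9.31, 8.59 and 8.76 in NICD embryos at stage 18, and 8.74, 8.98 and 8.97 in GFP embryos. The NICD arrays lay on both sides of the GFP arrays, and the difference was -0.01, with a 95% interval of -0.29 to 0.27. The other nkx2-5.S probe sets differed by -0.12 (-0.37 to 0.14) and 0.00 (-0.28 to 0.28). In all 3 probe sets NICD replicate 1 was above GFP replicate 1, whereas replicates 2 and 3 with NICD were below the GFP arrays of their number.

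**Figure D2:**
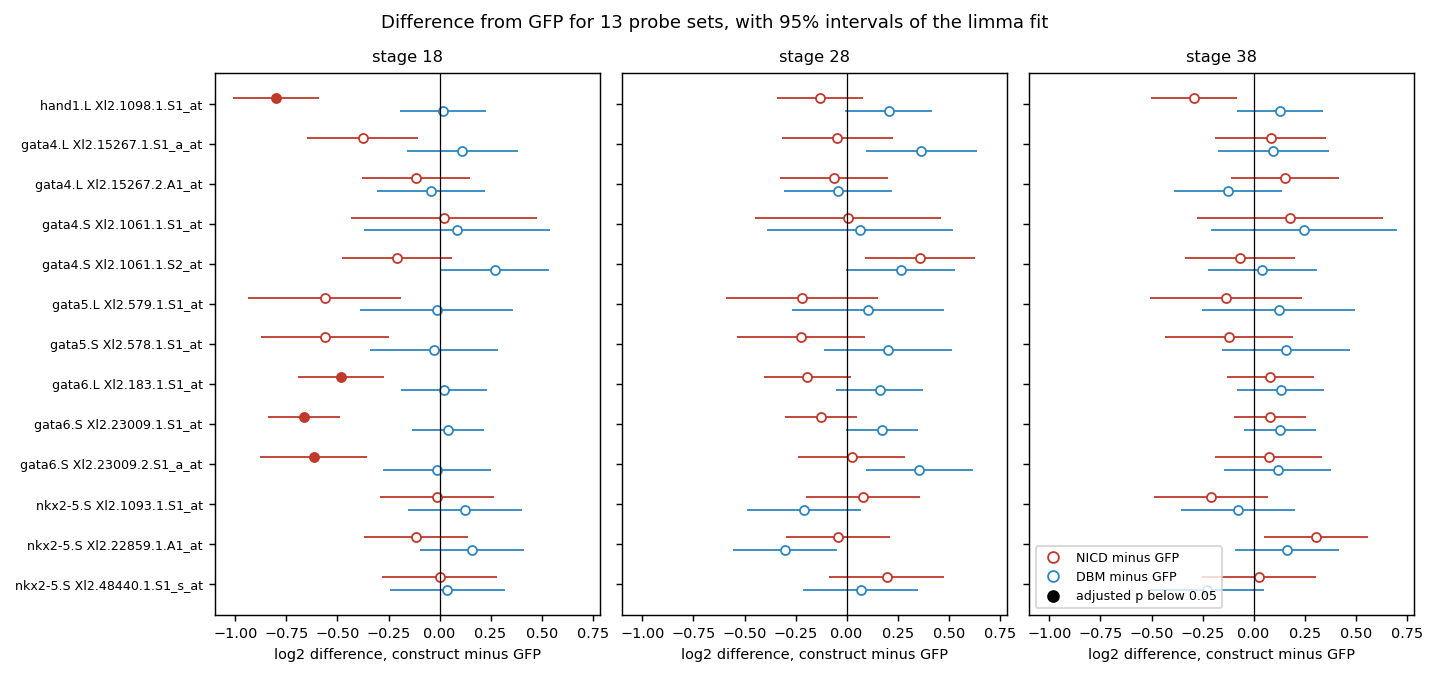
log2 difference from GFP (horizontal axes) of the 13 probe sets (vertical axis) at stages 18, 28 and 38, with 95% intervals of the limma fit. NICD minus GFP is red and above DBM minus GFP in blue for each probe set, and filled points have an adjusted p below 0.05. The 4 filled points are hand1.L at -0.80, gata6.L at -0.48 and gata6.S at -0.66 and -0.62, all with NICD at stage 18.

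Arrays of the same replicate number deviated together from their group means, with r of 0.454 to 0.811 within stages. Between arrays of different numbers, r was below 0 at stages 28 and 38 but reached 0.573 at stage 18. Deviations within a group sum to 0, so r above 0 for like numbers pushes r for different numbers below 0. The latter is therefore no separate support for a pairing. A fit that took the number as a block within each stage gave more calls for the same differences. With this block 7 member probe sets were lower with NICD than with GFP at stage 18, while 7.08% of all probe sets were. The additional ones were gata5.L (limma-adjusted p = 0.00055), gata5.S (0.0009) and gata4.L Xl2.15267.1.S1_a_at (0.0067). Between arrays of the same number, NICD minus GFP ran from -1.08 to -0.45 for hand1.L, from -0.74 to -0.53 for gata6.S Xl2.23009.1.S1_at and from -0.82 to -0.27 for gata5.L, whereas it ran from -0.39 to 0.57 for nkx2-5.S Xl2.1093.1.S1_at. The gata5 differences were thus of 1 sign in each pair of arrays, and those of nkx2-5.S were not. In all, 9 of the 13 members had every pair below 0, and the share over all probe sets was not counted. Among them was the dim gata4.L Xl2.15267.2.A1_at (-0.18 to -0.07), which did not pass with the block (limma-adjusted p = 0.5). The pairing was itself inferred from these values, so the signs serve as description only.

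**Figure D3:**
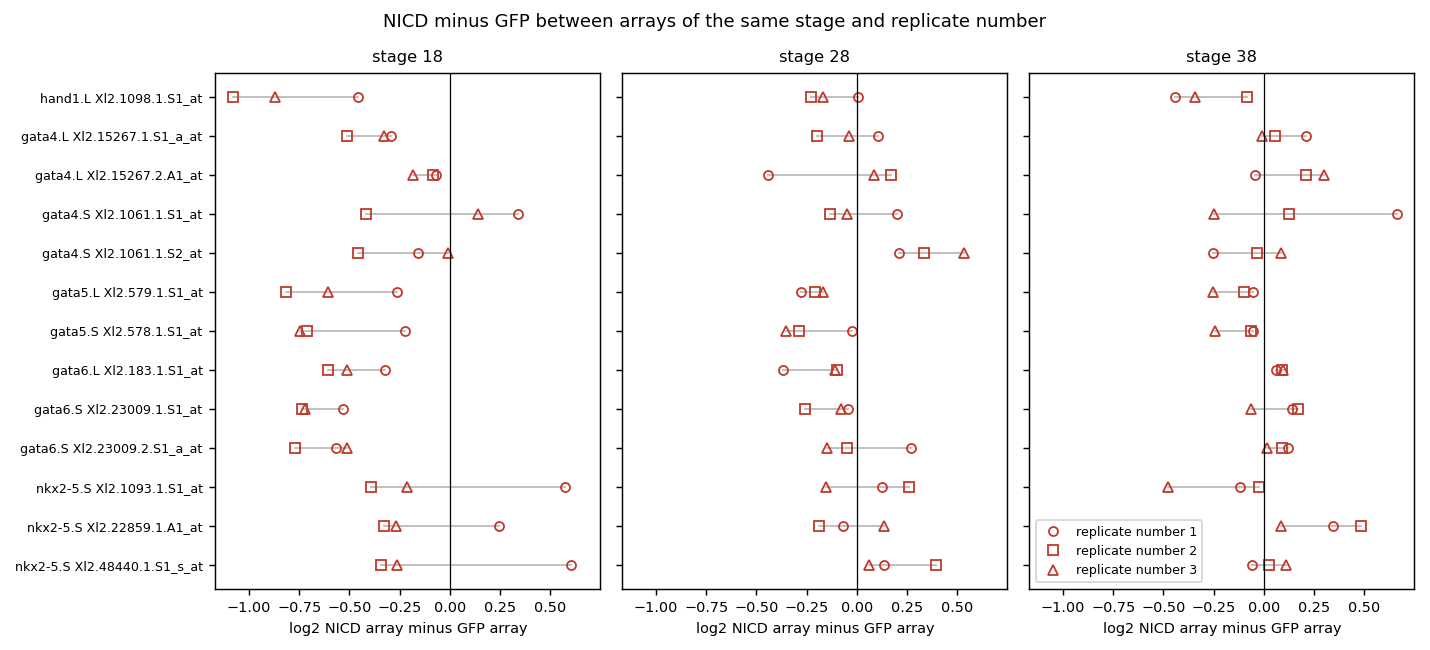
log2 value of an NICD array minus that of the GFP array of the same stage and replicate number (horizontal axes) for the 13 probe sets (vertical axis). Each symbol is 1 replicate number, and the grey line joins the lowest and highest. At stage 18 hand1.L spans -1.08 to -0.45, while nkx2-5.S Xl2.1093.1.S1_at spans -0.39 to 0.57.

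Markers of other tissues were read in the same arrays. Over 17 probe sets of blood and endothelium markers, the mean log2 value per array was 6.09 to 6.15 with NICD at stage 18, below the 6.29 to 6.56 with GFP, and 4 of the 17 with NICD and 6 with GFP had group means above the array median. For skeletal muscle markers (21 probe sets) it was 8.86 to 8.94 with NICD and 8.94 to 9.08 with GFP, ranges that overlapped slightly. Neural, epidermal, and endoderm and liver markers overlapped, at 8.08 to 8.20 with NICD against 8.15 to 8.21 with GFP, 9.41 to 9.72 against 9.55 to 9.71, and 6.47 to 6.61 against 6.45 to 6.61. Heart muscle markers (20 probe sets) were low at stage 18, with 5.38 to 5.53 in NICD embryos and at most 5.49 in GFP embryos, and 2 of 20 were above the array median in both. The part of these tissues in the hand1 and gata differences was not tested.

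In embryos with DBM, none of the 13 probe sets passed at any stage in limma, without a block. At stage 18, 1 had an unadjusted p below 0.05, as had 1543 of all 32635 probe sets. By the adjusted p, 0% of all probe sets passed. The difference for hand1.L was 0.02 (95% interval -0.19 to 0.23), that for gata6.S Xl2.23009.1.S1_at was 0.04 (-0.13 to 0.22) and that for gata6.L was 0.02 (-0.19 to 0.23). These intervals do not include differences as large as those with NICD, in either direction. They describe embryos with DBM, in which no fall of the Notch targets was seen at this stage (median 0.16 over 28 probe sets). Whether Notch signaling was lowered in them was not tested.

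At stage 28 the member probe sets had 0 calls with DBM, and 0.107% of all probe sets passed. Among the members, 3 had an unadjusted p below 0.05, as had 2214 of all 32635 probe sets. The difference for gata4.L Xl2.15267.1.S1_a_at, with 9.24, 8.84 and 9.48 in DBM embryos and 8.80, 8.74 and 8.92 in GFP embryos, was 0.37 ± 0.13 (SE, limma-adjusted p = 0.47). The ranges overlapped, and DBM replicate 2 was the low one. The others with a low unadjusted p were gata6.S Xl2.23009.2.S1_a_at (0.36, limma-adjusted p = 0.47) and nkx2-5.S Xl2.22859.1.A1_at (-0.30, 0.6). With the block within each stage gata4.L Xl2.15267.1.S1_a_at was the 1 member higher with DBM (limma-adjusted p = 0.032), where 1.57% of all probe sets were. Marker means per array at stage 28 were higher with DBM than with GFP for neural tissue (9.10 to 9.24 against 8.79 to 9.05) and skeletal muscle (10.69 to 10.91 against 10.60 to 10.65), and their part in these values was not tested. At stage 38 there were 0 calls among the members, also 0 with the block, and 0.0123% of all probe sets passed. An unadjusted p below 0.05 was found for 0 members and for 636 of all probe sets.

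The direct comparison of NICD with DBM at stage 18 gave the same 4 calls: hand1.L (-0.82), gata6.S (-0.71 and -0.60) and gata6.L (-0.50), all lower in NICD embryos, where 0.3% of all probe sets were lower. All 13 differences were below 0, and this comparison shares its NICD arrays with the one against GFP. With the block within each stage 8 were lower, and 3.38% of all probe sets were. Without a block, 2 passed when DBM replicate 1, DBM replicate 3 or NICD replicate 2 was left out, and 0 passed with only the 6 arrays compared. The additional 4 with the block were gata4.L Xl2.15267.1.S1_a_at (-0.49), gata4.S Xl2.1061.1.S2_at (-0.48), gata5.L (-0.55) and gata5.S (-0.53). Marker means per array did not overlap for blood and endothelium, at 6.09 to 6.15 with NICD against 6.26 to 6.46 with DBM, nor for skeletal muscle, at 8.86 to 8.94 with NICD against 8.97 to 9.19 with DBM, with 1 probe set of each list called lower. Their part in these differences was not tested.

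At stage 28 no member was called different between NICD and GFP embryos. The median absolute log2 difference over the 13 was 0.13, against 0.38 at stage 18. Over all probe sets it was 0.10 at stage 28 and 0.12 at stage 18. For hand1.L the arrays read 9.84, 9.58 and 9.78 with NICD, against 9.83, 9.81 and 9.94 with GFP. The groups overlapped, with a difference of -0.13 (95% interval -0.34 to 0.08). The gata6.S probe set Xl2.23009.1.S1_at read 9.57, 9.40 and 9.54 with NICD and 9.62, 9.66 and 9.62 with GFP, a difference of -0.13 (-0.30 to 0.05), and gata6.L differed by -0.19 (-0.41 to 0.02). The groups did not overlap with either probe set. Both gata5.L and gata5.S differed by -0.22, and for gata5.L the NICD arrays (9.43 to 9.54) lay below the GFP arrays (9.68 to 9.75). For nkx2-5.S Xl2.48440.1.S1_s_at the difference was 0.20, with all NICD arrays above the GFP arrays. Of the 13 differences, 8 were below 0 and 5 above. In limma 0 of 13 passed with or without the block, and 0.65% of all probe sets passed without it. Without the block, 2810 of all 32635 probe sets and 1 of the 13 had an unadjusted p below 0.05. That one was gata4.S Xl2.1061.1.S2_at, with 5.26, 5.02 and 5.11 in NICD and 5.05, 4.69 and 4.58 in GFP embryos, a difference of 0.36 (limma-adjusted p = 0.3). Its GFP mean, 4.77, was below the dim limit of 5.04. Blood and endothelium markers were again lower with NICD, at 6.28 to 6.57 against 6.79 to 6.93 with GFP, and their part was not tested.

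Set against DBM at stage 28, NICD embryos had a median difference of -0.30 over the 13 probe sets, against 0.02 over all. The values of hand1.L were 9.84, 9.58 and 9.78 with NICD and 10.05, 10.04 and 10.12 with DBM. The groups did not overlap, and the difference NICD minus DBM was -0.34 ± 0.10 (SE, limma-adjusted p = 0.12). For gata6.L it was -0.36 (0.09) and for gata6.S Xl2.23009.1.S1_at -0.30 (0.082). Without the block 8 of 13 had an unadjusted p below 0.05, as had 3177 of all 32635 probe sets. By the adjusted p 0 of 13 passed without the block, and 1.16% of all probe sets were lower. With it 7 were lower, namely hand1.L, gata4.L Xl2.15267.1.S1_a_at, gata5.L, gata5.S, gata6.L and both of gata6.S (limma-adjusted p = 0.0044 to 0.045), as were 5.04% of all. Marker means per array were also lower with NICD than with DBM, without overlap, for neural tissue (8.75 to 8.91 against 9.10 to 9.24, 6 of 17 probe sets called lower), for blood and endothelium (6.28 to 6.57 against 6.72 to 6.81, 2 of 17) and for endoderm and liver (6.77 to 6.93 against 7.07 to 7.25, 2 of 16). The part of these tissues was not tested. The nkx2-5.S probe sets had differences of 0.29, 0.26 and 0.13, above 0 in all 3 probe sets but with limma-adjusted p of 0.49, 0.5 and 0.92.

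At stage 38 hand1.L had the lowest values of its series with NICD, at 8.65, 8.71 and 8.63, against 9.09, 8.80 and 8.98 with GFP. The NICD arrays lay below all GFP arrays, and the difference was -0.29 ± 0.10 (SE, limma-adjusted p = 0.82). Against DBM, with 9.17, 8.99 and 9.09, it was -0.42 ± 0.10 (SE, limma-adjusted p = 0.062), and its adjusted p was 0.023 once replicate number was a block. Blood and endothelium markers also lay lower, at 6.94 to 7.07 with NICD, 7.09 to 7.31 with DBM and 7.08 to 7.16 with GFP, and their part was not tested. The gata6.L probe set differed from GFP by 0.08, and gata6.S by 0.08 and 0.07, with all 3 ranges overlapping. Of nkx2-5.S, Xl2.1093.1.S1_at lay below the GFP arrays (-0.21) and Xl2.22859.1.A1_at above them (0.30), so that the probe sets of this gene disagreed in sign. Neither passed (limma-adjusted p of 1 in both), and the GFP mean of Xl2.22859.1.A1_at, 4.89, was below the dim limit of 5.04. In limma 0 of 13 passed against GFP, with or without the block, and 0.095% of all probe sets passed. Without the block 2 of 13 had an unadjusted p below 0.05, as had 1076 of all 32635 probe sets. Against DBM 0 passed, where 0.628% of all passed. In that comparison 2 of 13 had an unadjusted p below 0.05, as had 1965 of all probe sets. With the block hand1.L was the 1 member lower than in DBM embryos, and 2.21% of all probe sets were lower.

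The change of the NICD effect between stages was tested as an interaction. For gata6.S Xl2.23009.1.S1_at the NICD minus GFP difference was -0.66 at stage 18, -0.13 at stage 28 and 0.08 at stage 38. The stage 38 effect minus the stage 18 effect was 0.74 ± 0.12 (SE, limma-adjusted p = 0.0045), the 1 member that passed, where 0.095% of all probe sets were higher. For gata6.S Xl2.23009.2.S1_a_at this value was 0.69 (limma-adjusted p = 0.14), for gata6.L 0.56 (0.13) and for hand1.L 0.51 (0.2). With the block within each stage these 3 and gata4.L Xl2.15267.1.S1_a_at (0.46) passed too, 5 in all, against 2.07% of all probe sets. With only the arrays of these groups in the fit and no block, 0 passed (limma-adjusted p = 0.13 for gata6.S Xl2.23009.1.S1_at). The stage 38 means of gata6.S Xl2.23009.2.S1_a_at, 5.01 with NICD and 4.93 with GFP, were below the dim limit of 5.04.

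From stage 18 to stage 28 the change of the NICD effect was 0.67 ± 0.14 for hand1.L (SE, limma-adjusted p = 0.08) and 0.54 ± 0.12 for gata6.S Xl2.23009.1.S1_at (SE, limma-adjusted p = 0.1). Without a block 4 of 13 had an unadjusted p below 0.05, as had 2418 of all 32635 probe sets. By the adjusted p 0 of 13 passed without a block, and 0.0245% of all probe sets were higher. With it 3 were higher, hand1.L and both of gata6.S (limma-adjusted p = 0.01 to 0.017), as were 1.59% of all. Without NICD replicate 1 at stage 18, the highest NICD array for hand1.L, the value for hand1.L was 0.80 (limma-adjusted p = 0.011). Between stages 28 and 38 there were 0 calls, also 0 with the block, and 0.00306% of all probe sets passed. For 1 member the unadjusted p was below 0.05, as for 1024 of all probe sets. For DBM the changes gave 0 calls in limma with and without the block. In the order of stages 18 to 28, 28 to 38 and 18 to 38, 0.0245%, 0% and 0.00613% of all probe sets passed. In that order 1, 1 and 0 members had an unadjusted p below 0.05, as had 2504, 1009 and 966 of all probe sets.

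In GFP embryos nearly all members fell with age. Between stages 18 and 38, 12 of 13 probe sets were lower at stage 38, with a median difference of -1.32 against -0.12 over all probe sets, but 37% of all probe sets were lower as well. The remaining member was the dim gata4.L Xl2.15267.2.A1_at (-0.08). From stage 18 to stage 28, 9 of 13 were lower (29.4% of all), and from stage 28 to stage 38, 11 of 13 were (22.4% of all).

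Members are described here by the stage at which they fell, without a test between them. For hand1.L no change was detected from stage 18 to stage 28, with a difference of 0.04 (95% interval -0.17 to 0.26), and it was then 0.91 lower at stage 38 than at stage 28 on the log2 scale, as the values 9.83, 9.81 and 9.94 and then 9.09, 8.80 and 8.98 show. Both gata5 probe sets also first passed after stage 28, with -0.12 (-0.50 to 0.25) for gata5.L and -0.15 (-0.46 to 0.17) for gata5.S up to stage 28, then -1.16 and -0.70 up to stage 38 (limma-adjusted p = 1.9e-05 and 0.00067). In contrast, gata6.L was already lower at stage 28, with 10.17, 10.35 and 10.37 at stage 18, 8.80, 8.65 and 8.57 at stage 28 and 7.61, 7.87 and 7.80 at stage 38, which made 5.80-fold less at stage 38 than at stage 18.

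The nkx2-5.S probe set Xl2.1093.1.S1_at read 8.74, 8.98 and 8.97 at stage 18 in GFP embryos, 8.14, 7.96 and 8.15 at stage 28 and 6.82, 6.80 and 6.96 at stage 38. No stage overlapped the next, and the difference of stage 38 from stage 18 was -2.04 ± 0.13 (SE, limma-adjusted p = 9.6e-12). Its probe set Xl2.22859.1.A1_at gave -1.85 and the dimmer Xl2.48440.1.S1_s_at -0.86, so the probe sets of 1 gene disagreed in size. For gata4 the differences were -1.36 (gata4.L Xl2.15267.1.S1_a_at), -1.32 and -1.12 (gata4.S). The last is from Xl2.1061.1.S2_at, whose stage 38 mean, 4.45, was below the dim limit of 5.04. So was that of nkx2-5.S Xl2.22859.1.A1_at, 4.89.

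**Figure D4:**
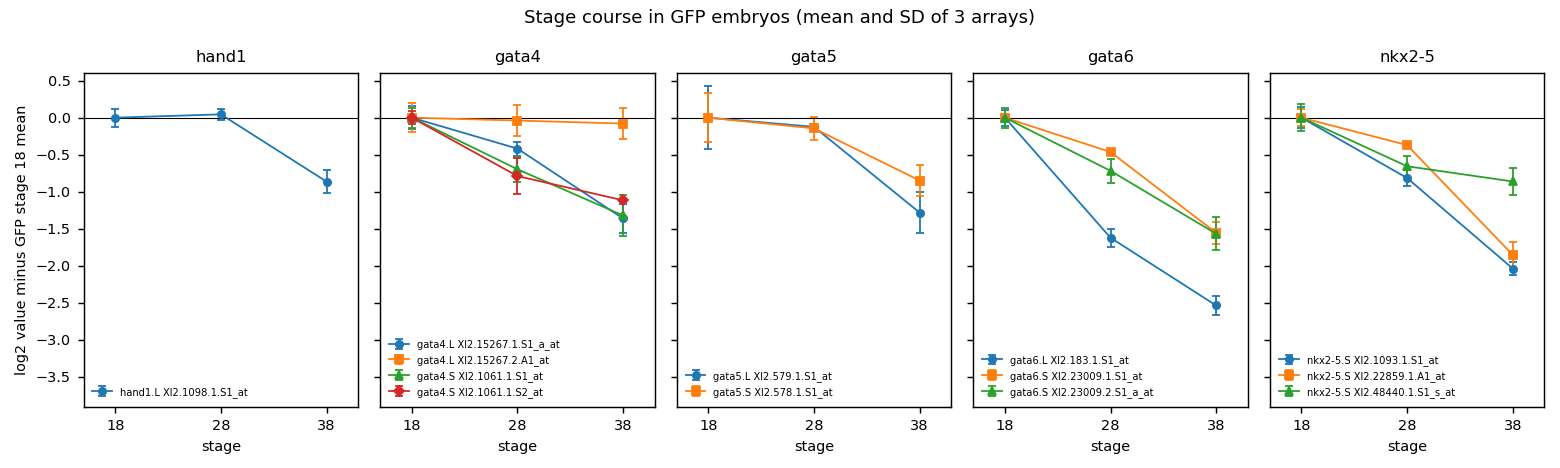
log2 value minus the GFP stage 18 mean (vertical axis) at stages 18, 28 and 38 (horizontal axes, evenly spaced) in GFP embryos, for each probe set of the 5 genes. Points are means and bars the SD of 3 arrays. The hand1.L line is flat up to stage 28 (0.04) and reaches -0.86 at stage 38, while gata6.L is at -1.62 at stage 28 and -2.54 at stage 38.

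Ordered by mean, the 9 groups of hand1.L ran from DBM at stage 28 (10.07 ± 0.04, SD, n = 3), over GFP at stage 28 (9.86 ± 0.07), DBM at stage 18 (9.84 ± 0.08), GFP at stage 18 (9.82 ± 0.12), NICD at stage 28 (9.73 ± 0.13), DBM at stage 38 (9.09 ± 0.09), NICD at stage 18 (9.02 ± 0.22) and GFP at stage 38 (8.96 ± 0.15), to NICD at stage 38 (8.67 ± 0.04). The ranges of neighbours overlapped among GFP at stage 28, DBM and GFP at stage 18 and NICD at stage 28, and again among DBM at stage 38, NICD at stage 18 and GFP at stage 38. The hand1.L mean of NICD embryos at stage 18 thus stood among the groups of stage 38. For gata6.L the order went by stage, and every group of stage 18 was above those of stage 28 and every group of stage 28 above those of stage 38. For gata6.S Xl2.23009.1.S1_at it did so too except for NICD at stage 18 (9.43 ± 0.12), which came after DBM (9.80 ± 0.09), GFP (9.63 ± 0.03) and NICD (9.50 ± 0.09) at stage 28 and overlapped NICD at stage 28.

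Further genes were read from lists, whose names do not show that a gene acts in the heart at these stages. A list of further cardiac transcription factors held 46 probe sets. At stage 18, 0.732% of all probe sets were lower with NICD than with GFP, and the share called higher was not counted. Of the 46, 1 was higher and 1 lower, with a median of -0.06. The 1 that rose was mespb.L, a Mesp family factor of early mesoderm (0.82 ± 0.16, SE, limma-adjusted p = 0.0071), and the 1 that fell was tcf21.L, a factor of the epicardium and the pharyngeal mesoderm (-0.46 ± 0.11, SE, 0.037). The T-box factor tbx3.L had -0.57 and the MADS-box factor mef2d.L 0.58, with limma-adjusted p of 0.054 and 0.081. Of 37 probe sets of heart muscle proteins none passed at any stage, and their median was 0.01 at stage 18, -0.07 at stage 28 and 0.04 at stage 38.

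Among 43 probe sets of lateral plate and ventral mesoderm genes, 3 were lower and 1 was higher with NICD at stage 18, with a median of 0.04. The lower ones were szl.S (-1.41 ± 0.20) and szl.L (-1.22 ± 0.23), which encode sizzled, a secreted feedback inhibitor of the BMP pathway, and foxf1.L (-0.79 ± 0.15), a forkhead factor of lateral plate mesoderm. The higher one was wnt8a.L (0.75 ± 0.14), a ventral and posterior Wnt signal. Errors are SE and limma-adjusted p-values were 0.00036 to 0.0071.

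Of 58 probe sets of the BMP pathway, the 2 for sizzled were lower and fst.L, which encodes the BMP and activin antagonist follistatin, was higher (0.51, limma-adjusted p = 0.034), with a median of 0.06. Blood and endothelium regulators had a median of -0.25, with 3 of 32 probe sets lower and none higher. These were runx1.L (-0.97), a factor of blood stem cells, ets1.L (-0.56), which acts in endothelium, and spib.L (-0.73), a factor of early myeloid cells (limma-adjusted p = 0.00069, 0.033 and 0.049). Of 39 endoderm and gut regulators, cdx1.S (0.95) and cdx4.L (0.57), posterior homeobox factors, were higher, and sox9.S (-0.25) was lower.

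At stage 28, 1 probe set of the cardiac factor list was higher with NICD, again mespb.L (0.70, limma-adjusted p = 0.038). Whether mespb.L rose in heart precursors was not tested. Of the lateral plate and ventral genes 5 probe sets were higher, for wnt8a.L (1.02), bmp2.S (0.56), ventx1.1.L (0.69 and 0.43) and msx1.S (0.45). Of the endoderm and gut regulators cdx4.L was higher (0.68, limma-adjusted p = 0.015), and of the BMP pathway bmp2.S, which is in both lists, was the 1 that passed. Of the blood and endothelium regulators runx1.L was lower (-0.66, limma-adjusted p = 0.035). At stage 38 no probe set of the 6 lists besides the Notch targets passed. The closest relative of hand1, hand2, had values of -0.52 for hand2.L (limma-adjusted p = 0.26) and -0.51 for hand2.S (0.67) at that stage. With DBM no probe set of the 7 lists passed at any stage.

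Heart muscle proteins mostly rose over the same stages in GFP embryos. Of their 37 probe sets, 29 were higher at stage 38 than at stage 18 and 1 was lower, with a median of 1.80, where 26.8% of all probe sets were higher and 37% lower. Examples are myl4.L (3.96), a myosin light chain, tnnc1.S (3.85), a cardiac troponin, and nppa.L (3.51), the atrial natriuretic peptide. Of the 46 probe sets of cardiac factors 8 were higher and 25 lower, and hand2.L was among the higher ones (2.41), with tbx5.L (1.75) and irx4.L (1.16).

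Probe sets with the most similar pattern to hand1.L were taken by Pearson's r over the 27 arrays. With the raw values these were palm3.L (0.91), agr2.L (0.90) and medag.S (0.90). After the mean of each stage was subtracted, cib2.S (0.85), foxf1.L (0.83) and the member gata6.S Xl2.23009.1.S1_at (0.83) came first. For that gata6.S probe set it was szl.S (0.84), then hand1.L (0.83), and for gata6.L it was galnt16.L (0.83) and adh1a.S (0.78). These points share arrays, stages and replicate numbers, and r is given as a description. Between hand1.L and the other members, r after the stage means were subtracted was 0.78 for gata5.S, 0.70 for gata6.S Xl2.23009.2.S1_a_at and 0.68 for gata6.L. It was 0.63 for gata4.L Xl2.15267.1.S1_a_at and gata5.L, but 0.06 and 0.44 for the gata4.S probe sets Xl2.1061.1.S1_at and Xl2.1061.1.S2_at. The dim gata4.L Xl2.15267.2.A1_at gave -0.01, and nkx2-5.S gave 0.24, 0.12 and 0.01.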

How the data were processed

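Values came from the deposited series table, in which the authors had summarized each array by RMA (background correction, quantile normalization and median polish) to log2 values per probe set, and were used without further normalization. A second deposited table holds the same kind of log2 values and the authors' limma p-values, which were not used. Of its 27 per-array columns 6 matched an array by name, with a largest difference of 0, and 21 were not used. Gene symbols came from the platform table, with Entrez identifiers looked up in RefSeq gene names of assembly 10.1 (15394 probe sets found, 2 symbols changed), and 279 probe sets with several genes and 16851 without a symbol were not named.

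A linear model with 9 group means was fitted to all 27 arrays and 32635 probe sets (limma 3.58.1 in R 4.3.3, statmod 1.5.0; lmFit, contrasts.fit, eBayes), with p-values adjusted by Benjamini-Hochberg within each comparison and called below 0.05. Differences are NICD or DBM minus GFP, NICD minus DBM, or later minus earlier GFP stage, and interactions are differences of such differences. A check of the fit on simulated data used independent noise for each array, so it does not cover the correlation described next. Arrays of the same stage and replicate number correlated at 0.454 to 0.811 in their deviations from group means (27 pairs), which is where the pairing comes from, since the titles do not state it. Arrays of different numbers correlated at -0.689 to 0.573 at stage 18, where replicates 2 and 3 share a code in column names of the second table. At stages 28 and 38 they correlated below 0, which is no separate support, since deviations within a group sum to 0. Because of the correlation between like numbers, the number was also fitted as a block within each stage. Comparisons between stages were excepted, since such a block cannot estimate them. Other settings were 1 block over all stages, only the arrays compared, each array left out, dim probe sets left out, repeated quantile normalization, subtracted array medians, trend and robust fitting, and array weights, and, chosen after seeing the data, only replicates 2 and 3 at stage 18.

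Members and lists were chosen with earlier results of these data known. Named genes were all members, up to 4 symbols of lowest adjusted p of each list per comparison (those that passed for DBM, and 4 in each direction between GFP stages), and the 3 probe sets of highest r to a member. With 3 arrays per group, their number limits the precision of every value.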

Additional observations from a re-analysis of the deposited data

Results flagged for a closer look

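The effect of NICD on gata6.S (Xl2.23009.1.S1_at) differed between stage 38 and stage 18 by a test of the difference itself. NICD minus GFP was 0.08 at stage 38 and -0.66 at stage 18, and the difference of these was 0.74 ± 0.12 (SE, limma-adjusted p = 0.0045). It was the only one of the 13 probe sets with such a call between these stages in the fit without block or weights. With array weights hand1.L (limma-adjusted p = 0.013), gata6.L (0.013) and gata6.S Xl2.23009.2.S1_a_at (0.034) passed too. For gata6.S Xl2.23009.1.S1_at the range of the adjusted p over all settings tried was 0.00035 (array weights) to 0.13 (only the arrays of these 4 groups in the fit).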

How the results depend on the processing

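Of the member differences over all comparisons, the 64 that passed with or without the block within each stage kept their sign under every setting tried. Of the 170 that did not pass, 67 changed sign under at least 1 setting, the largest of them at 0.20 on the log2 scale. At stage 18, NICD minus GFP ran from -0.21 to 0.25 for gata4.S Xl2.1061.1.S1_at and from -0.30 to 0.14 for nkx2-5.S Xl2.1093.1.S1_at, and DBM minus GFP from -0.03 to 0.09 for hand1.L. The replicate block within each stage changed the counts of member probe sets called in 7 comparisons, to 7 for NICD minus GFP and 8 for NICD minus DBM at stage 18 (4 each without it), to 7 and 1 for NICD minus DBM at stages 28 and 38, to 1 for DBM minus GFP at stage 28, and to 3 and 5 for the change of the NICD effect from stage 18 to 28 and to 38. It changed no other count. One block over all stages gave 1 for NICD minus DBM at stage 38, and 6 each for NICD minus GFP and NICD minus DBM at stage 18. Array weights gave 7 for NICD minus GFP and 6 for NICD minus DBM at stage 18, 5 and 1 for NICD minus DBM at stages 28 and 38, and 2 and 4 for the 2 changes of the NICD effect. With only the arrays compared, 0 passed for NICD minus GFP and NICD minus DBM at stage 18 and for the NICD effect at stage 38 minus stage 18. With only replicates 2 and 3 at stage 18, a setting chosen after seeing the data, both changes of the NICD effect gave 2, and NICD minus GFP at stage 18 gave 6. Leaving out 1 array gave 2 to 6 for NICD minus GFP at stage 18, 2 to 4 for NICD minus DBM at stage 18, 0 to 1 for NICD minus DBM at stage 28, 0 to 2 for the NICD effect at stage 28 minus stage 18 (2 without NICD replicate 1 at stage 18) and 1 to 2 at stage 38 minus stage 18, 8 to 9 for GFP stage 28 minus stage 18 and 9 to 11 for stage 38 minus stage 28. All other counts differed by less than 1.5 times or stayed at 0. The cause of these differences between settings was not tested. With 3 arrays per group and pools of 10 embryos, small differences could go undetected, and dim probe sets are the least reliable.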
